A study of Homo sapiens with 8 samples.

Results

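A set of 10 genes of Wnt signalling was followed in the RNA of LM2 cells: the secreted inhibitors DKK1 and DKK3, the ligands WNT5A, WNT5B, WNT7B and WNT10A, the nuclear factors LEF1 and TCF7, and the pathway targets AXIN2 and RNF43. They were 10 of the 58688 genes listed in the count tables and were matched by symbol. They were chosen by their measured values in the Ponatinib and knockdown contrasts, and which value decided each gene is not recorded. Their own differences in those contrasts are therefore given as a description, and no p-value is given for them. LM2 cells are a subline of the triple negative breast cancer line MDA-MB-231 that metastasizes to the lung, and RNA sequencing was done on 8 samples in 2 experiments. In the drug experiment, cells received DMSO (2 samples) or 1 µmol/L Ponatinib, a drug that blocks ABL among other tyrosine kinases, for 6 h (2 samples). In the knockdown experiment, stable cells made with lentivirus and puromycin selection carried scrambled shRNA (shCtrl), an ABL1 shRNA, an ABL2 shRNA or both shRNAs (double knockdown), with 1 sample each and no replicates. Short hairpin RNAs (shRNAs) act by degrading the mRNA that they match, and all 4 samples of this experiment, the control included, share the viral infection. No label says that samples of a group came from separate cultures, so the spread between them may be technical.

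Wnt proteins are secreted lipid-modified ligands that bind Frizzled receptors, and with the co-receptors LRP5 and LRP6 they keep beta-catenin from being degraded. Beta-catenin then enters the nucleus and joins TCF/LEF factors, and AXIN2 and RNF43 are among the genes that it turns on, both acting back on the pathway as brakes. DKK1 blocks the pathway outside the cell by binding LRP5 and LRP6, while ligands such as WNT5A can also signal without beta-catenin, through cell polarity and movement.

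The counts on genes summed to between 7568934 and 13010896 per sample, and the 3 counts taken as a floor equal 0.231 to 0.396 CPM, which are counts scaled to a common library size. CPM were normalized by the TMM method of edgeR, and the experiments were compared only within themselves. The targeted genes followed the labels. In shCtrl and the ABL1, ABL2 and double knockdown, ABL1 was at 189, 72.9, 202 and 109 normalized CPM. ABL2 was at 235, 213, 93.5 and 148 in the same order. In the drug experiment ABL2 RNA was also lower, at 320 ± 20.6 CPM with DMSO and 158 ± 15.2 with Ponatinib. ABL1 was at 164 ± 1.94 CPM with DMSO and 188 ± 7.78 with Ponatinib (SD, n = 2 each). In the tables of shCtrl and ABL1 shRNA, a header cell names the condition of the other table. Both were used under their sample labels, which the ABL1 level follows. The mesenchymal markers VIM, CD44 and CDH2 summed to between 2366 and 3715 CPM, although CDH2 alone had at most 12 counts. ESR1 had 3 to 11 counts and PGR 0 in every sample, while ERBB2 had 515 to 826 counts. Of 6 markers of immune, endothelial and fibroblast cells, PTPRC, CD3E, CDH5 and DCN had at most 4 counts. The remaining markers were PECAM1, of endothelial cells, and COL1A1. In each sample 2 or 3 of the 6 exceeded 3 counts. The summed level of the 6 was 66.2 to 66.8 CPM with DMSO and 77.9 to 88.0 with Ponatinib. In the knockdown experiment it was 426 CPM in shCtrl and 130, 266 and 171 in the ABL1, ABL2 and double knockdown, mostly from COL1A1 (4623, 1285, 2851 and 1683 counts), and its part in the knockdown results was not tested. In bulk RNA, fewer cells that express a gene and less RNA per cell cannot be told apart.

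DKK1, the member with the highest level per length, is shown by the 250 bases before its start in RefSeq (GRCh38.p14, chr10:52314031-52314280, plus strand), because the drug and knockdown differences of this gene were among the largest of the 10. Capitals mark a TATAAA on the strand of the gene, a TATA box sequence, which begins 30 bases before the start.
DKK1: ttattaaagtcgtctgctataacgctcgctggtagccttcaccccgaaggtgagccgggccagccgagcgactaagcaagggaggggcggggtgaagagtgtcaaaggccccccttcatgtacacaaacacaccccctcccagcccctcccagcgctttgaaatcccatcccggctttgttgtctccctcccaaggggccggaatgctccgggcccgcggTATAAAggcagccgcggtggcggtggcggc
The stretch is 62.8% G and C. TATAAA on the strand of the gene was found in 7.33% of 35116 RefSeq promoter windows of 300 bases, and this motif was chosen after the DKK1 sequence had been seen. Of 11 windows for the 7 members that had a window, DKK1 held it alone. AXIN2, WNT7B and DKK3 had no window, so none of these motifs was searched for in them. The TCF/LEF core CTTTGAT, searched on both strands, was in 0 of the 11 member windows and in 2.62% of all windows. The AP-1 motif TGANTCA, also on both strands, was in 1 member window, of RNF43, and in 7.71% of all windows. A match is a description of these letters and not of binding.

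Per kilobase of exon, DKK1 stood far above the other members in both control groups. With DMSO, DKK1 was at 61.4 ± 2.65 CPM per kb, and WNT5B and WNT7B followed at 5.34 ± 0.545 and 5.13 ± 0.338 (SD, n = 2). WNT5B and WNT7B did not differ beyond their spread. LEF1 was at 2.23 ± 0.123, WNT5A at 1.14 ± 0.0621, AXIN2 at 0.560 ± 0.0493 and TCF7 at 0.298 ± 0.0112 CPM per kb (SD, n = 2 each). These values did not overlap between neighbours in the order. Before division by length, AXIN2 and TCF7 did overlap, at 3.09 and 2.73 against 3.09 and 2.93 normalized CPM. Their order thus rests on annotated exon lengths of 5197 and 10093 bases, whose error the SD does not cover. DKK3 was at 0.0892 ± 0.0305 CPM per kb, while RNF43 had 1 and 0 counts and WNT10A had 0 counts in both DMSO samples. In shCtrl, a single sample of the other experiment, DKK1 was at 63.4 CPM per kb and WNT5A came next at 5.60, ahead of WNT5B at 4.22 and WNT7B at 3.83. AXIN2 was at 2.48, LEF1 at 2.12, WNT10A at 0.60, TCF7 at 0.503, DKK3 at 0.132 and RNF43 at 0.0415 CPM per kb. The control groups were normalized apart, so their levels stand side by side and were not compared.

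**Figure D1:**
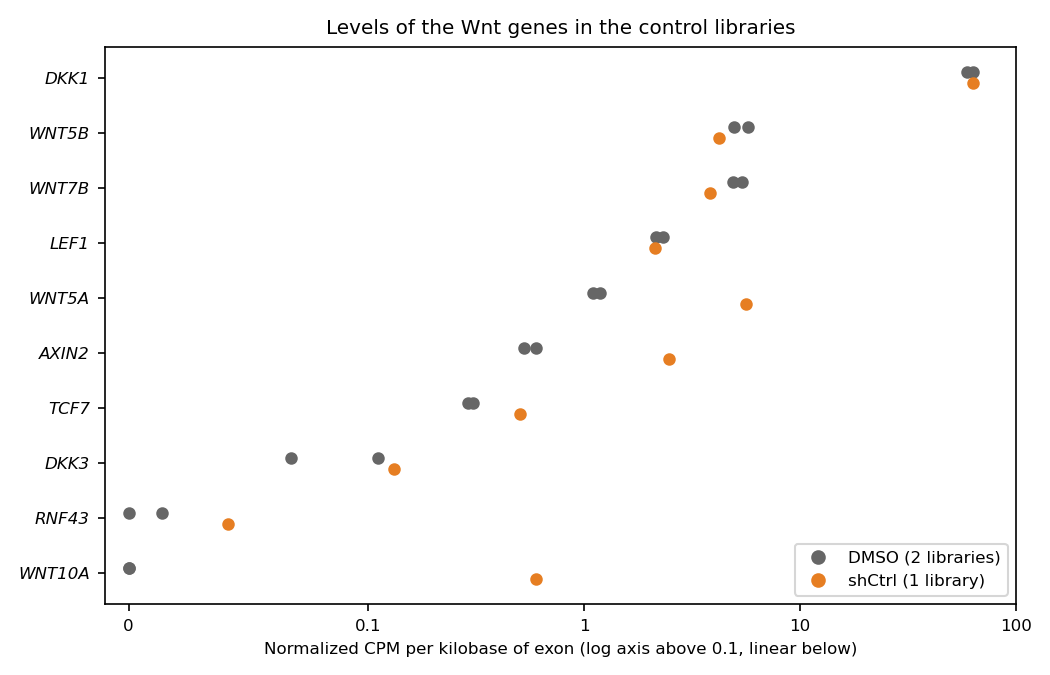
Level of each member in normalized CPM per kilobase of exon (log axis above 0.1, linear below) in each DMSO sample and in shCtrl. DKK1 lies at 61.4 CPM per kb with DMSO and 63.4 in shCtrl, above every other member in both.

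The inhibitor DKK1 was lower with Ponatinib and in every knockdown sample. On GRCh38, with the GENCODE annotation used for every position here, the gene lies on chromosome 10 from 52314281 to 52318042 on the plus strand. It was at 141 and 132 normalized CPM in the DMSO samples and 64.8 and 63.0 in the Ponatinib samples. Both treated samples lay below both controls. The means were 136 ± 5.88 with DMSO and 63.9 ± 1.28 with Ponatinib (SD, n = 2 each). The log2 fold change was -1.09 with a standard error of 0.07. Among the shRNA samples, DKK1 was at 141 CPM in shCtrl and at 72.4, 37.5 and 60.5 in the ABL1, ABL2 and double knockdown. The ABL2 shRNA sample was the lowest of the 4. The log2 ratios to shCtrl were -0.96 (95% counting interval -1.08 to -0.84), -1.91 (-2.06 to -1.76) and -1.22 (-1.35 to -1.09). These intervals did not overlap one another, but they are exact binomial intervals that cover counting error only, with no replicate behind them, and reads without molecular identifiers are not independent molecules. The 3 ratios share 1 control sample, so they are not independent of each other.

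DKK3, a divergent relative of DKK1, was near the limit of detection in the drug experiment. It lies on chromosome 11 from 11956207 to 12009769 on the minus strand. It had 15 and 8 counts with DMSO and 5 and 2 with Ponatinib, and it did not pass the filter on low counts. Among the shRNA samples DKK3 had 18 counts in shCtrl and 31, 38 and 33 in the ABL1, ABL2 and double knockdown samples. Its log2 ratios were 0.60 (95% counting interval -0.28 to 1.53), 0.94 (0.09 to 1.83) and 0.79 (-0.09 to 1.7), so that the ABL2 knockdown alone had an interval above 0. Of its exon bases, 5681 of 11958 overlap USP47 on the other strand. The library kit does not mark strand, so reads from the shared bases cannot be told apart between DKK3 and USP47.

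Among the ligands, WNT5B, which signals mainly without beta-catenin, was lower with Ponatinib by a small amount. On chromosome 12 from 1529891 to 1647212, it was at 24.3 and 21.0 normalized CPM with DMSO and 17.2 and 17.3 with Ponatinib, and the groups did not overlap. The log2 fold change was -0.40 (standard error 0.12). In shCtrl and the ABL1, ABL2 and double knockdown it was at 17.9, 14.8, 17.2 and 17.0 CPM, and each of the 3 counting intervals of the ratio reached across 0, with log2 ratios of -0.27, -0.05 and -0.07.

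WNT7B, a ligand that can act through beta-catenin, was lower with Ponatinib and higher in the knockdown samples. It lies on chromosome 22 from 45920366 to 45977162 on the minus strand. The DMSO samples were at 27.3 and 24.8 normalized CPM and the Ponatinib samples at 18.1 and 20.9. With the drug both samples were below both controls, with a log2 fold change of -0.43 (standard error 0.12). Among the shRNA samples WNT7B was at 19.4 CPM in shCtrl and 23.7, 29.1 and 28.9 in the ABL1, ABL2 and double knockdown, the lowest value being that of the control. The log2 ratios were 0.29 (95% counting interval 0.03 to 0.54), 0.58 (0.34 to 0.83) and 0.57 (0.33 to 0.82). The opposite signs in the drug and knockdown experiments were not tested against each other.

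WNT5A, the classic ligand of the beta-catenin-independent branch, lies on chromosome 3 from 55465715 to 55490539. With DMSO it was at 7.86 and 8.48 normalized CPM and with Ponatinib at 6.64 and 5.19, so that the groups did not overlap. Its log2 fold change was -0.44 with a standard error of 0.19. In shCtrl it was at 40.0 CPM, against 56.6, 41.3 and 40.2 in the ABL1, ABL2 and double knockdown. The ABL1 shRNA sample stood above the other 3, with a log2 ratio of 0.50 (95% counting interval 0.33 to 0.67), and the other ratios were 0.04 and 0.01.

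WNT10A, a ligand of the beta-catenin branch on chromosome 2 from 218880852 to 218899581, was detected above the floor in the shCtrl sample only. It had 0 counts in both DMSO samples, 1 in each Ponatinib sample, 20 in shCtrl, 1 each with ABL1 shRNA and ABL2 shRNA and 0 in the double knockdown. The ratio to shCtrl was 0.0441 (95% counting interval 0.00106 to 0.275) with ABL1 shRNA and 0.0453 (0.00109 to 0.283) with ABL2 shRNA. In the double knockdown, with 0 counts, it was at least 7.09-fold lower when 3 counts are taken as the floor in that sample, and the 95% counting interval of the ratio, which also covers the error of the 20 counts, reached up to 0.190. The difference rests on the 20 counts of 1 sample, the same shCtrl sample that held the highest COL1A1 count.

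**Figure D2:**
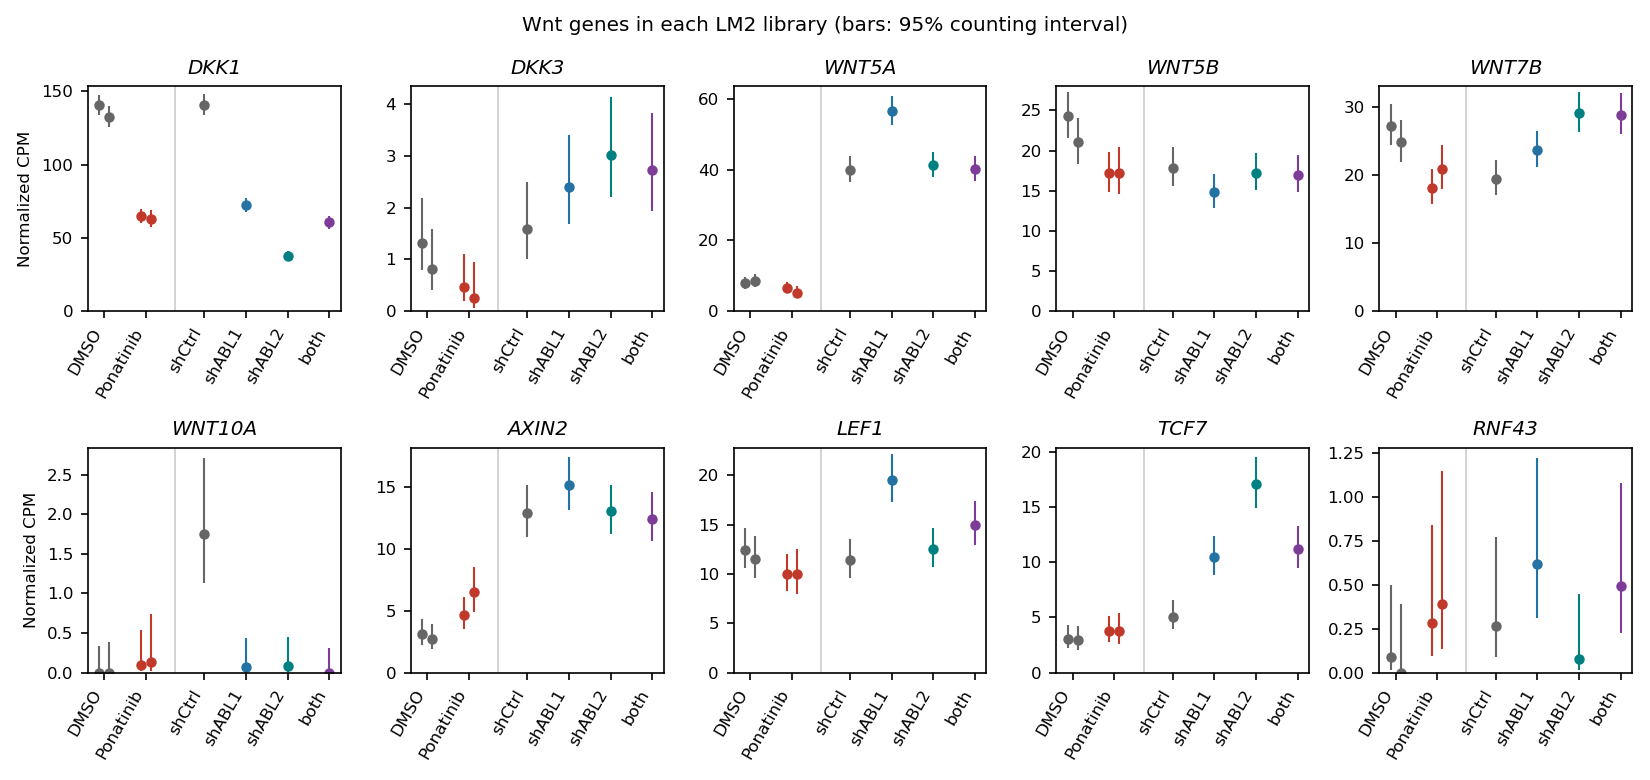
Normalized CPM of each member (linear axes from 0, 1 panel a gene) in each of the 8 samples, where both is the double knockdown, with 95% Wilson intervals for counting error as bars. DKK1 lies at 132 to 141 CPM in the controls of both experiments and at 37.5 to 72.4 in every treated or knockdown sample.

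The nuclear factor TCF7 was higher than in shCtrl in every knockdown sample. TCF7, a DNA-binding partner of beta-catenin, lies on chromosome 5 from 134114681 to 134151865. It was at 3.09 and 2.93 normalized CPM with DMSO and 3.79 and 3.76 with Ponatinib, a log2 fold change of 0.33 (standard error 0.24). The drug samples lay above both controls at 29 to 40 counts per sample. TCF7 was at 5.08 CPM in shCtrl and at 10.5, 17.1 and 11.2 in the ABL1, ABL2 and double knockdown, from 58, 136, 215 and 136 counts. Every knockdown sample exceeded the control. The log2 ratios were 1.05 (95% counting interval 0.59 to 1.52), 1.75 (1.32 to 2.19) and 1.14 (0.69 to 1.61).

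LEF1, the related factor, lies on chromosome 4 from 108047545 to 108168956. It was at 12.4 and 11.5 normalized CPM with DMSO and 9.96 and 10.0 with Ponatinib. The drug samples were both below the controls, with a log2 fold change of -0.27 (standard error 0.15), and LEF1, like WNT5A and TCF7, was not called. With the shRNAs it was at 11.4 CPM in shCtrl and 19.5, 12.5 and 14.99 in the ABL1, ABL2 and double knockdown. LEF1 was highest with ABL1 shRNA, at a log2 ratio of 0.78 (95% counting interval 0.47 to 1.09), whereas TCF7 was highest with ABL2 shRNA. The interval of LEF1 reached across 0 with ABL2 shRNA (0.14, -0.20 to 0.49) and not in the double knockdown (0.40, 0.06 to 0.73).

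AXIN2, a scaffold of the complex that degrades beta-catenin and a widely used readout of the pathway, was higher with Ponatinib. It lies on chromosome 17 from 65528563 to 65561648. Normalized CPM were 3.09 and 2.73 with DMSO and 4.65 and 6.49 with Ponatinib, from 35, 27, 49 and 50 counts. The Ponatinib samples differed from each other by more than the DMSO samples did, and neither overlapped with DMSO. The log2 fold change was 0.90 (standard error 0.25). AXIN2 was at 12.9 CPM in shCtrl and at 15.1, 13.0 and 12.4 in the knockdown samples, with log2 ratios of 0.23, 0.02 and -0.05 and intervals that all reached across 0. Of the exon bases of AXIN2, 1316 overlap another annotated gene on the same strand. RNF43, an E3 ligase that removes Frizzled receptors from the cell surface, lies on chromosome 17 from 58353676 to 58417595. RNF43 had 1 and 0 counts with DMSO, 3 and 3 with Ponatinib, 3 in shCtrl and 8, 1 and 6 in the knockdown samples, which is too few for a comparison at this depth. Antisense genes overlap the exons of DKK1 (PRKG1-AS1, 227 bases), LEF1 (LEF1-AS1, 279 bases) and RNF43 (TSPOAP1-AS1, 345 bases), and SKP1 overlaps TCF7 on the other strand by 210 bases, so their reads cannot be told apart there.

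**Figure D3:**
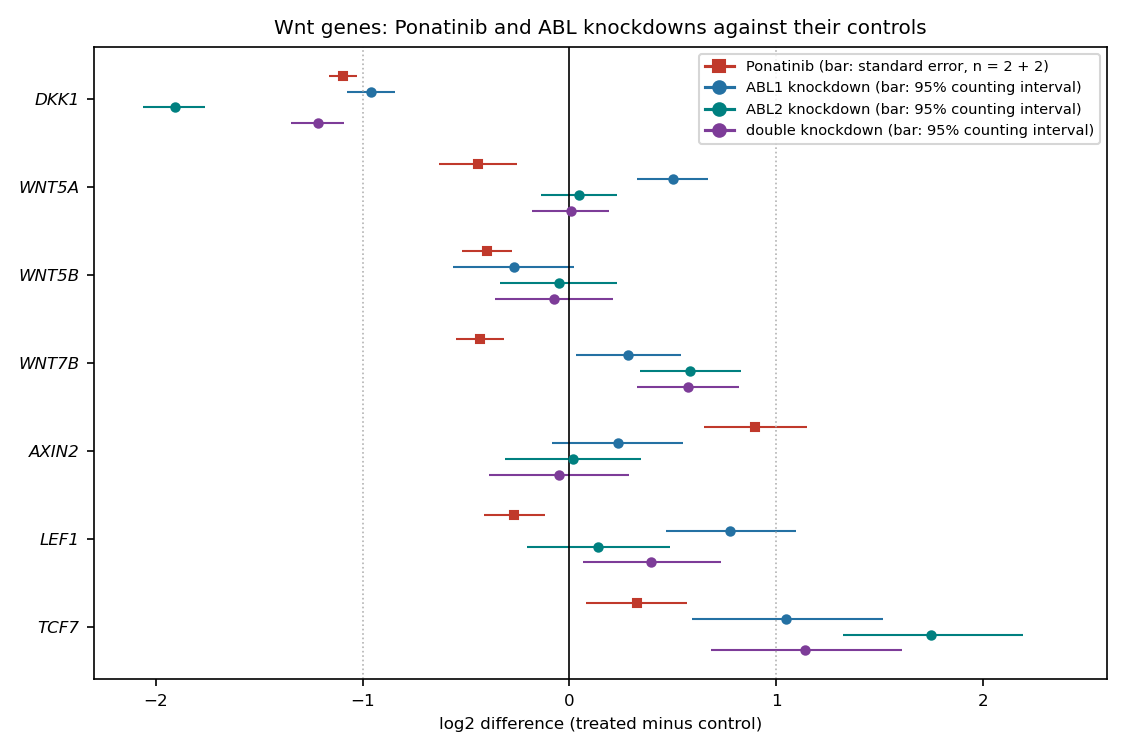
Log2 difference from the control for 7 members, with Ponatinib as squares (bar: standard error, n = 2 per group) and each knockdown as circles (bar: 95% counting interval). DKK1 lies between -1.91 and -0.96 in all 4 comparisons, and TCF7 between 1.05 and 1.75 in the knockdowns.

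Of the 10 members, 7 passed the filter on low counts in the drug experiment and 4 fell under the threshold used for all genes, an adjusted p under 0.05 in the quasi-likelihood fit of edgeR (AXIN2 higher, DKK1, WNT5B and WNT7B lower). This count is a description and not a test of the members. Over all 16031 genes tested, 30.7% were called (15% higher and 15.7% lower). Since the members were picked with this contrast in view, nothing is read from their count. Under a rule of a fold over 2 with an unadjusted p under 0.05, DKK1 was the member called, beside 5.48% of all genes (3.19% higher and 2.29% lower). The median log2 fold change of the 7 members was -0.40, against -0.0047 over all genes tested. The calls of WNT5B, WNT7B and AXIN2 did not hold in every alternative. With DESeq2's Wald test DKK1 was the only member called. WNT5B was no longer called without DMSO replicate 1, WNT7B without DMSO replicate 1 or Ponatinib replicate 1, and AXIN2 without DMSO replicate 2 or Ponatinib replicate 2.

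In the knockdowns, a gene with a mean of at least 10 counts was counted when it differed from shCtrl by more than 2-fold, with no test. With ABL1 shRNA, 2 of 9 members passed this fold (TCF7 higher and WNT10A lower), beside 6.75% of 15161 genes (3.51% higher and 3.24% lower). With ABL2 shRNA, 3 of 9 passed it (TCF7 higher, DKK1 and WNT10A lower), beside 5.76% of genes (3.52% higher and 2.24% lower). In the double knockdown the 3 were again TCF7, DKK1 and WNT10A, beside 5.64% of genes (3.22% higher and 2.41% lower). Nothing is read from these counts either, since the contrasts share 1 control sample and were in view when the members were chosen.

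A wider list of 97 Wnt pathway genes, the members left out, was tested in the drug experiment in the same edgeR fit, with Benjamini-Hochberg adjustment over all genes. Of the 59 that passed the filter, 27 were called, 13 higher and 14 lower (45.8%, against 30.7% of all genes), with a median log2 fold change of -0.05. That median was 0.018 without DMSO replicate 1 and 0.040 without Ponatinib replicate 1. DESeq2's Wald test called 15 of the 59 (25.4%, against 17.6% of all genes). The list was chosen with earlier results of these data known and was not matched to all genes in count level. No set test was run, so nothing particular to the list is read from these shares. By role, beside 15% of all genes called higher and 15.7% lower, 4 of the 7 planar polarity genes were called higher and 0 lower, and the 16 cytoplasmic relay genes had 4 called in each direction. Among 13 receptors 1 was called higher and 3 lower, and among 9 nuclear factors 3 and 2. Among 4 ligands 1 was called higher and 1 lower, and among 4 targets 0 and 2. CTNNB1, which encodes beta-catenin, was at 500.4 ± 0.714 CPM with DMSO and 525 ± 1.87 with Ponatinib (SD, n = 2 each; edgeR adjusted p = 0.384).

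The ligand WNT9A rose with Ponatinib from 3.62 and 3.74 normalized CPM to 21.8 and 22.5 (log2 fold change 2.58, SE 0.16, adjusted p = 1.1e-08 by edgeR). The drug samples lay far above the controls, and the difference in the knockdown experiment had the other sign, with 19.3 CPM in shCtrl and 10.0, 7.70 and 8.15 in the ABL1, ABL2 and double knockdown. FZD8, a Frizzled receptor, fell from 43.3 and 43.9 CPM to 11.6 and 10.9 (log2 fold change -1.95, SE 0.11, adjusted p = 4.3e-09 by edgeR). In the knockdown samples FZD8 was higher than in shCtrl, at 94.8, 90.4 and 104 against 67.2 CPM. FZD1 also fell, from 48.0 and 52.8 to 25.8 and 24.3 CPM (log2 fold change -1.003, adjusted p = 1.3e-06 by edgeR).

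The beta-catenin partner TCF7L2, a relative of TCF7 and LEF1, rose with Ponatinib from 36.9 and 38.1 to 75.7 and 87.2 CPM (log2 fold change 1.11, edgeR adjusted p = 1.7e-07). The planar cell polarity genes DAAM1, PRICKLE2 and CELSR2 also rose. DAAM1, a formin, went from 13.1 and 11.9 to 25.5 and 26.2 CPM (1.04, edgeR adjusted p = 9.7e-06), PRICKLE2 from 6.97 and 8.89 to 14.6 and 14.7 CPM (0.89, adjusted p = 0.00054) and the cadherin CELSR2 from 16.3 and 15.7 to 23.9 and 24.4 CPM (0.59, adjusted p = 0.0011). Of the 4 targets tested, CCND1 and MYC were the 2 called, both lower, with log2 fold changes of -1.61 and -0.85. The other targets were not called. SP5 was at 3.24 ± 0.841 CPM with DMSO and 4.52 ± 0.764 with Ponatinib, and TNFRSF19 at 11.3 ± 0.339 and 12.5 ± 0.808 (SD, n = 2 each). ZNRF3, the relative of RNF43, fell from 11.7 and 11.1 to 7.78 and 7.27 CPM (-0.59, edgeR adjusted p = 0.010), and this call was lost without DMSO replicate 1 (adjusted p = 0.078) and with DESeq2 (adjusted p = 0.113).

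**Figure D4:**
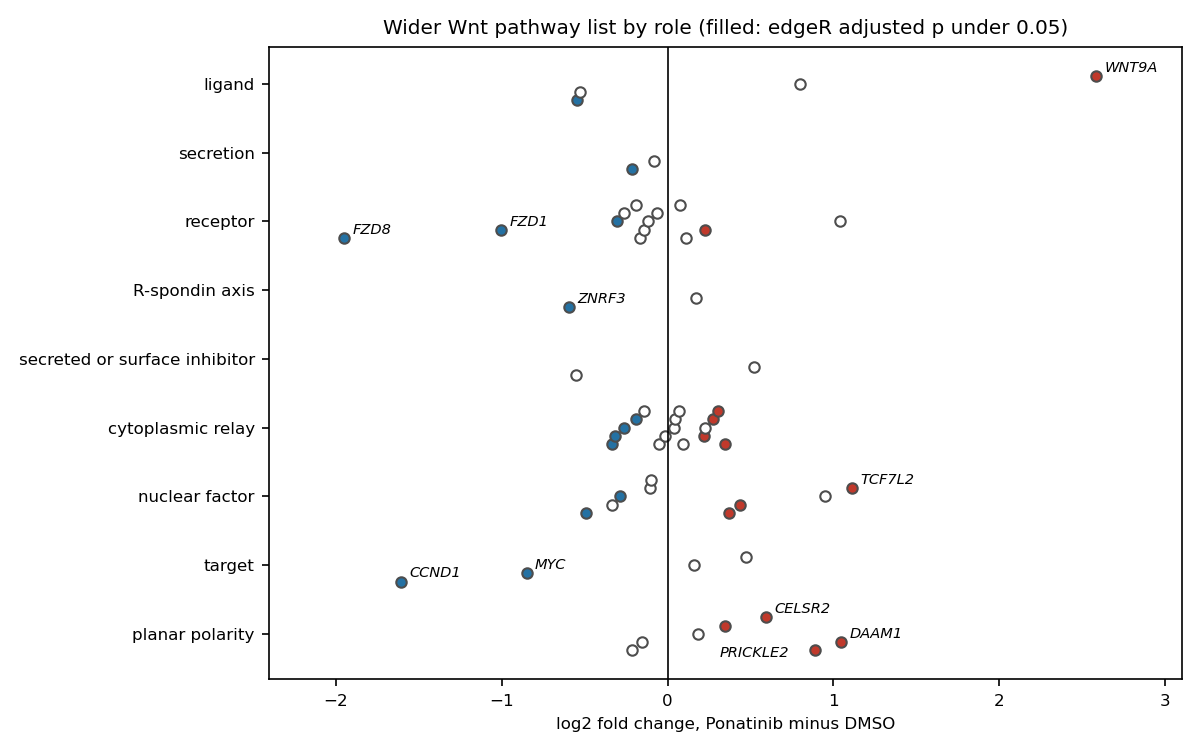
Log2 fold change with Ponatinib of the 59 tested genes of the wider Wnt list, by role, with filled points for those of adjusted p under 0.05. WNT9A lies at 2.58 and FZD8 at -1.95, and 4 of the 7 planar polarity genes are filled and higher.

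In the knockdown experiment LGR5, a receptor for R-spondins and itself a Wnt target, was higher than in shCtrl by over 2-fold in each knockdown sample. It was at 2.01 CPM in shCtrl and 19.2, 6.51 and 14.7 in the ABL1, ABL2 and double knockdown, from 23, 249, 82 and 178 counts. The ratios were 9.54 (95% counting interval 6.21 to 15.3), 3.23 (2.01 to 5.38) and 7.28 (4.70 to 11.8). The ligand WNT10B was lower in each, from 33 counts in shCtrl to 18, 12 and 17, with ratios of 0.481 (0.255 to 0.879), 0.330 (0.155 to 0.655) and 0.484 (0.253 to 0.895). At these counts each interval for WNT10B also held differences smaller than 2-fold. With the prior count its log2 ratios were -1.04 with ABL1 shRNA and -1.02 in the double knockdown, only just past 2-fold. WNT10B had too few counts to enter the alternative with a mean of at least 50 counts. These were the 2 list genes past 2-fold in the same direction in all 3 knockdowns, which share the shCtrl sample. Of 63, 62 and 63 list genes with enough counts, 5 passed 2-fold in each of the ABL1, ABL2 and double knockdown (7.94%, 8.06% and 7.94%), beside 6.75%, 5.76% and 5.64% of all genes, and nothing particular to the list is read from this. NKD1, an inhibitor and target of the pathway named here after its values were seen, had 8 counts in shCtrl and 67, 5 and 22 in the ABL1, ABL2 and double knockdown.

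The genes whose pattern was most like that of DKK1 were found by Pearson correlation of log2 CPM over the 8 samples, after subtraction of the mean of each experiment, among 11065 genes. The highest were BDNF (r = 0.995), a neurotrophin, PTPN1 (0.984), a tyrosine phosphatase, PICALM (0.983), TIMM22 (0.982) and SMS (0.981). The lowest were ALDH2 (-0.989), an aldehyde dehydrogenase, PLEKHG4 (-0.988) and NOL4L (-0.987). All 8 differed less than DKK1 did, with Ponatinib log2 differences between -0.45 and 0.51 against -1.09 for DKK1. The 8 points share their libraries and the knockdown points share shCtrl, so the correlations are a description.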

How the data were processed

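Sequencing covered 8 LM2 samples, with libraries made by the NEBNext Ultra kit. The authors deposited raw read counts per gene, 1 table per sample, without normalization. The submitters' processing notes name FastQC, TopHat and HTSeq 0.6.0 with hg38. Strand and multi-mapping settings are not given in the sources used here. The counter's summary rows, 15.7% to 16.0% of the counts in the shRNA tables, were left out of library sizes. Of 58688 gene IDs, 54836 matched a symbol.

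Ponatinib was compared with DMSO in 4 samples by the quasi-likelihood test of edgeR 4.0.16 under R 4.3.3, after TMM scaling and filterByExpr, with a prior count of 0.125. A call is a Benjamini-Hochberg adjusted p under 0.05. Each knockdown has 1 sample and was set against shCtrl as a log2 ratio of normalized CPM with a prior count of 0.5, without a test. Genes with a mean of at least 10 counts entered, and a fold over 2 was counted. Intervals are 95% Wilson for CPM and exact binomial for ratios, and they cover counting error only.

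The 10 members, the wider list and the tests were chosen with earlier results of these data known. The text names all members, list genes called with Ponatinib with a fold over 1.5, list genes past 2-fold one way in all 3 knockdowns, and the 5 highest and 3 lowest correlations with DKK1. On simulated data for Ponatinib (16031 genes), 100 of 100 genes changed 2-fold and 100 of 100 changed 3-fold were recovered, with 11 unchanged genes called. The simulated spread was the trend of the fit itself over expression level, with no variation particular to a gene. The recovery therefore does not show how well calls hold in the real data. The changed genes were drawn from those with a mean over 5 CPM, so recovery at lower levels was not tested. TCF7 lay below that level in both groups, and AXIN2 did with DMSO. Promoter windows came from RefSeq (GRCh38.p14). Alternatives were other scalings, filters, prior counts, call rules, the replicate block, leaving out each sample, an 8-sample fit and DESeq2 1.42.0.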

Additional observations from a re-analysis of the deposited data

How the results depend on the processing

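The log2 fold changes of members and named list genes with Ponatinib changed direction in no alternative. The wider list's median (-0.05) did, at 0.018 without DMSO replicate 1 and 0.040 without Ponatinib replicate 1, and with upper-quartile factors its calls were 16 higher and 13 lower, and those of all genes 2648 and 2268. All genes called with Ponatinib numbered 4917, with 2820 under DESeq2's Wald test, 878 under the rule of a fold over 2 with an unadjusted p under 0.05, and 2800 to 5744 when 1 sample was left out. The members called numbered 4, with 1 under the Wald test, 1 under the fold rule and 2 to 4 when 1 sample was left out. For the wider list the numbers were 27, then 15, 7 and 16 to 32. A group left with 1 sample is assumed there to vary like the other. The lowest counts came without DMSO replicate 1 for all genes and members, and without DMSO replicate 2 for the list. WNT5A was called without Ponatinib replicate 1 (log2 fold change -0.64). When the repeat number entered as a replicate block, 4984 genes, 4 members and 28 list genes were called. No label says what samples of the same number share. The deviations of DMSO and Ponatinib replicate 1 from their group means correlated at 0.0291 across 11933 genes. This value cannot show whether they shared a culture or a batch. In the knockdowns, of 1 sample each, a mean of at least 50 counts left 462 genes, 1 member and 2 list genes past 2-fold with ABL1 shRNA. It left 361 genes with ABL2 shRNA, and 343 genes and 2 list genes in the double knockdown. Fewer genes entered, and the share of them past 2-fold was also lower. That share was 3.87%, 3.02% and 2.88% in the ABL1, ABL2 and double knockdown, against 6.75%, 5.76% and 5.64% with a mean of at least 10 counts. A prior count of 2 left 3 list genes with ABL1 shRNA. In the fit of all 8 samples 3 list genes passed with ABL1 shRNA, 556 genes with ABL2 shRNA, and 552 genes and 2 list genes in the double knockdown. That fit takes its spread from the DMSO and Ponatinib pairs. Of 102 alternative log2 ratios of members in the knockdowns, 1 changed direction, that of WNT5A in the double knockdown, which was near 0 (0.0056, and -0.002 in the 8-sample fit).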
